A study of Homo sapiens with 36 samples.

Results

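The T cell receptor alpha locus segment was taken as a window of 220 kb on chromosome 14, chr14:22850000-23070000 of the genome build hg19. All H3K27ac regions and JUNB sites overlapping the window were members, and the window was chosen by measured values, the H3K27ac counts of EpCAM+ CD49f+ cells at day 14 of trametinib against day 0, where it rose strongly. It held 65 of 434639 listed features. Of these, 44 were H3K27ac regions over 6 count tables, out of 288084, and 21 were JUNB sites, out of 146555. Each H3K27ac table lists its own regions, so neighbouring regions of different tables can mark the same place. By overlap the 44 regions fell into 13 positions. A region absent from a table was not counted there, and its absence says nothing about acetylation in those libraries.

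In T cells this locus is assembled by bringing a variable segment next to a joining segment. TRAC is the exon group that encodes the constant part of the receptor alpha chain, and the delta chain genes lie within the same locus. A well studied enhancer that is active in T cells lies beyond TRAC, on the side of DAD1. DAD1 encodes a subunit of the oligosaccharyltransferase complex, which attaches sugar chains to new proteins in the endoplasmic reticulum, and is expressed in most cell types. H3K27ac is a histone acetylation found at active promoters and enhancers. JUNB is one of the proteins that pair to form AP-1, a transcription factor that acts downstream of growth factor and MAP kinase signalling. An assembly other than that of the regions, GRCh38.p14, lists 61 TRAJ entries between TRDC and TRAC, then LINC02332 and LOC105370399 between TRAC and DAD1, followed by ABHD4. Its coordinates were not used. No region could therefore be tied to TRAC or DAD1, and the locus name is given here only as the name of the window.

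The cells were SUM-229PE, a triple-negative breast cancer line derived from a pleural effusion, sorted by flow cytometry into a POS population, which carries the surface proteins EpCAM and CD49f, and a NEG population, which carries neither. The acute groups received DMSO (3 POS and 2 NEG H3K27ac libraries, 2 POS and 2 NEG JUNB libraries) or 30 nM trametinib, an inhibitor of the kinase MEK, for 24 hours (3 POS and 2 NEG). The chronic groups were day 14 of 10 nM trametinib and day 0, which the table names call a DMSO control (2 libraries each for POS and NEG). POSR1 and POSR2 had 2 libraries each, and the labels give neither what they are nor whether drug was present. No drug-free group at day 14 was analysed here, so drug and time in culture cannot be told apart in the chronic arms. All libraries come from 1 cell line. Nothing states that replicates were separate cultures, so p-values measure only the spread between these libraries. The sorted identity was not checked against marker genes, because regions were not assigned to genes.

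Libraries held 1861227 to 9212006 counts in H3K27ac regions and 4884516 to 8947351 in JUNB sites. Levels are CPM, counts scaled to the total in the regions of a table and adjusted by trimmed mean of M-values, and each table was scaled separately. Differences are log2 fold changes with their standard errors (SE). Except in the chronic POS table, a feature was called when edgeR's quasi-likelihood test gave a Benjamini-Hochberg adjusted p below 0.05 over all features of its table. All 65 members passed the filter on low counts.

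Of the 13 positions, 2 were listed in all 6 H3K27ac tables, chr14:23005298-23006797 and chr14:23040865-23042502. They are called here the JUNB-rich position, for a value given further on, and the right-end position. Another 5 places were listed in all 4 tables that hold POS acute, chronic or POSR libraries. These are chr14:23025595-23026661, the edge position at chr14:22858728-22860085, a left pair at chr14:22896515-22898520 and chr14:22900980-22902030, and the central position at chr14:22988158-22989563. In the left pair, chr14:22897519-22898520 of chronic POS only just overlapped chr14:22896555-22897556 of the other POS tables. The 2 hold different JUNB sites and are not the same place. At the right end the POSR region, chr14:23041501-23042502, also lay to the right of the others. By contrast, 4 positions appeared in 1 table. The regions chr14:22888418-22889419, chr14:22965984-22966985 and chr14:22990829-22991830 were listed only for chronic POS, and chr14:23015086-23016087 only for chronic NEG.

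At day 14 in POS, acetylation rose steeply over the middle of the window and was lower at both of its ends. These values chose the window, so they are given as a description, without a test. At chr14:22965984-22966985 the day 0 libraries had 0.714 and 0.598 CPM, from 4 and 2 counts, and the day 14 libraries had 63.3 and 62.3 CPM, from 343 and 318 counts. The log2 fold change was 6.50 ± 0.28 (SE), rank 2 of 44304 regions by gain. The region was close to empty in both day 0 libraries and well filled in both day 14 libraries. The fitted fold of so low a start depends on the prior count, here edgeR's default.

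At chr14:22990829-22991830 the level was 1.96 and 2.99 CPM at day 0 against 121 and 124 CPM at day 14 (log2 fold change 5.68 ± 0.22, rank 6). Its neighbour 2.43 kb to the left, chr14:22988398-22989399 of the central position, started higher, at 17.9 and 15.0 CPM, and reached 124 and 120 CPM (2.87 ± 0.16, rank 1675). The pair thus began apart and ended at about the same level. At the JUNB-rich position, chr14:23005796-23006797 went from 12.0 and 13.5 CPM to 50.8 and 59.2 CPM (2.13 ± 0.16, rank 4175). These 4 regions span 39.8 kb between their starts.

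The other 7 regions of chronic POS gained less in CPM. The left pair gained modestly: chr14:22901029-22902030 rose from 13.4 and 18.9 CPM to 29.2 and 30.8 CPM, a log2 fold change of 0.95 ± 0.17, and chr14:22897519-22898520 had 0.34 ± 0.23. Low counts of 4 and 10 at day 0 stood against 37 and 45 at day 14 in chr14:22888418-22889419, a log2 fold change of 2.28 ± 0.43 from 0.714 and 2.99 CPM to 6.83 and 8.82 CPM. Downward differences were found at both ends. At the edge position, chr14:22858728-22859729 had 9.28 and 11.4 CPM at day 0 and 7.20 and 6.67 CPM at day 14 (-0.54 ± 0.27). At the right end, chr14:23040865-23041866 had 8.92 and 11.7 CPM against 5.91 and 6.27 CPM (-0.72 ± 0.28). At chr14:23025660-23026661 the day 0 and day 14 libraries overlapped (-0.10 ± 0.26), and chr14:23039183-23040184 had 0.52 ± 0.27.

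In all, 5 of 11 chronic POS members gained 2-fold or more and 0 of 11 lost 2-fold or more. Over all 44304 regions of that table, 26.5% gained and 26.4% lost that much. The median log2 fold change was 0.95 over the members and 0.03 over all regions. Summed over the members, the group means rose from 97.5 to 444 CPM, a ratio of 4.56. The 4 regions with the largest increase in CPM made up 95.1% of that net rise, and the next region added 13.9 CPM.

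**Figure D1:**
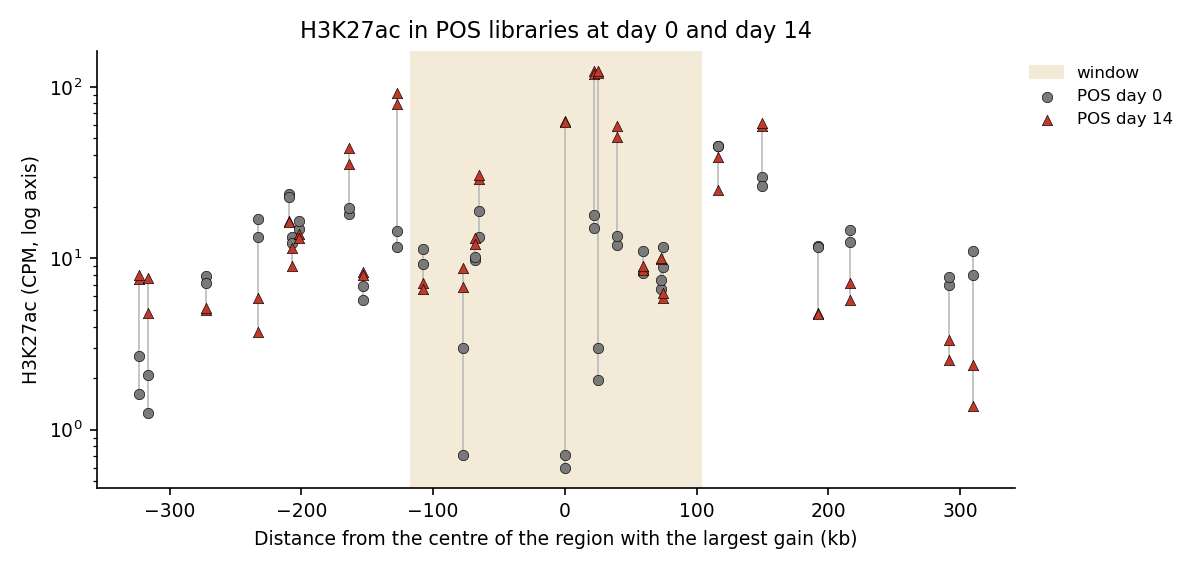
H3K27ac level (CPM, log axis) of each POS library at day 0 (grey circles) and day 14 (red triangles) for regions of the window (shaded) and of the stretches of equal width beside it, against distance from the centre of the region with the largest gain. Within the window, the 4 regions that gain most in CPM lie between 0 and 39.8 kb on this axis, while the regions at both ends are lower at day 14.

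Just outside the window the picture was uneven. The nearest listed region to the left, chr14:22838451-22839452, had 14.5 and 11.7 CPM at day 0 and 79.7 and 91.5 CPM at day 14 in POS (log2 fold change 2.68 ± 0.16). The nearest to the right, chr14:23082512-23083513, had 45.3 and 45.2 CPM against 39.1 and 25.1 CPM (-0.49 ± 0.14). In the 220 kb to the left, 4 of 10 regions gained and 1 lost 2-fold or more. In the 220 kb to the right, 1 of 6 gained and 4 lost that much.

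The chronic NEG table listed 4 regions in the window, and none of them was called higher after 14 days. Its test is independent of the values that chose the window. At the JUNB-rich position, chr14:23005796-23006797 had 13.6 and 12.7 CPM at day 0 and 17.9 and 18.3 CPM at day 14, a log2 fold change of 0.45 ± 0.25 (adjusted p = 0.129, edgeR's quasi-likelihood test). The day 14 libraries lay above the day 0 libraries, but the difference was not past the threshold. At the right end, chr14:23040865-23041866 had 0.46 ± 0.25 (adjusted p = 0.115 by edgeR). Without NEG day 0 replicate 1 that region was called higher, at 0.76 ± 0.32 (adjusted p = 0.0493 by edgeR).

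One of the 4 members was called lower in chronic NEG. chr14:23015086-23016087 fell from 13.1 and 12.7 CPM to 6.32 and 6.73 CPM, on 12 and 14 counts at day 14, with a log2 fold change of -0.98 ± 0.34 (adjusted p = 0.0126 by edgeR). The call did not hold under DESeq2 (adjusted p = 0.158), nor without day 14 replicate 1 (-0.94), day 14 replicate 2 (-1.02) or day 0 replicate 1 (-0.95). Over all regions counted for chronic NEG, 24.8% were called higher and 23.8% lower. The 3 places with the steepest rise in POS (22965984, 22988398 and 22990829) were not listed for chronic NEG, so whether the chronic response differed there between POS and NEG was not tested. Beside the window, the region at chr14:22838451-22839452 did rise in NEG, from 1.42 and 3.85 CPM to 19.0 and 22.6 CPM (3.06 ± 0.37, adjusted p = 8.39e-11 by edgeR), and so did chr14:23082512-23083513 (1.68 ± 0.17, adjusted p = 2.93e-13 by edgeR).

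Before any drug, with DMSO, more members were called higher in POS than lower. Of 8 members, 5 were called higher in POS and 1 lower. Over all regions counted for this comparison, 38.6% were called higher in POS and 38.0% lower. At the edge position, chr14:22859084-22860085 had 11.1, 12.1 and 10.0 CPM in POS and 1.42 and 1.95 CPM in NEG, a log2 fold change of POS over NEG of 2.70 ± 0.33 (adjusted p = 2.69e-09, edgeR's quasi-likelihood test). The POS libraries were each at least 10.0 CPM while neither NEG library reached 2 CPM.

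At the central position, chr14:22988562-22989563 had 20.0, 13.6 and 12.9 CPM in POS and 4.09 and 4.43 CPM in NEG (1.88 ± 0.24, adjusted p = 1.06e-08 by edgeR). The left pair was also higher in POS, by 1.58 ± 0.31 at chr14:22900980-22901981 and by 1.33 ± 0.25 at chr14:22896555-22897556 (adjusted p = 1.99e-05 and 7.69e-06 by edgeR). For each of these 3 regions the POS and NEG libraries did not overlap. Groups this small can also fail to overlap at features that are not called, and the share of all regions without overlap was not computed. The fifth, chr14:23005773-23006774 at the JUNB-rich position, differed less, with 18.0, 15.7 and 13.2 CPM in POS and 10.9 and 11.0 CPM in NEG (0.52 ± 0.19, adjusted p = 0.0114 by edgeR). That call was lost under DESeq2 (adjusted p = 0.128), with total counts as library sizes (0.35), without POS replicate 1 (0.39) and without NEG replicate 1 (0.51). In the authors' deposited table its adjusted p was 0.265.

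The region called lower in POS was chr14:23019130-23020131, with 0.886, 1.46 and 1.91 CPM in POS and 8.89 and 7.63 CPM in NEG (-2.56 ± 0.43, adjusted p = 1.65e-06 by edgeR). At the right end, chr14:23040921-23041922 was near equal, with group means of 11.8 ± 0.99 CPM (SD, n = 3) in POS and 11.6 ± 2.5 CPM (SD, n = 2) in NEG. Likewise chr14:23025633-23026634 had 8.04 ± 0.48 CPM (SD, n = 3) in POS and 7.82 ± 1.0 CPM (SD, n = 2) in NEG. In the 220 kb to the left all 7 listed regions were called higher in POS, and to the right 6 of 7 were. The median log2 fold change of POS over NEG was 0.93 in the window, 2.98 to the left and 1.94 to the right.

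JUNB sites of DMSO-treated cells ran in both directions across the window. Of 21 sites, 7 were called higher in POS and 4 lower, against 28.5% and 29.4% of all 141580 sites tested. The highest site by far lay in the JUNB-rich position. At chr14:23005949-23006150 the POS libraries had 115 and 103 CPM and the NEG libraries 61.9 and 70.7 CPM, a mean level at percentile 99.8 of all sites. It was higher in POS by 0.72 ± 0.23 (adjusted p = 0.00366, edgeR's quasi-likelihood test). The next highest, chr14:23041589-23041790 in the right-end position, had 11.3 and 7.06 CPM in POS and 6.96 and 9.23 CPM in NEG, and the groups overlapped.

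The steepest JUNB difference was at the edge position, where acetylation also differed most between POS and NEG. chr14:22859312-22859513 had 14.9 and 15.3 CPM in POS and 0.708 and 0.523 CPM in NEG, on 6 and 3 counts (4.54 ± 0.40, adjusted p = 4.85e-28 by edgeR). A further site of that position, chr14:22859947-22860148, had 1.98 and 3.43 CPM against 0.354 and 0.523 CPM (2.57 ± 0.64, adjusted p = 1.78e-04 by edgeR). That second call was lost without POS replicate 2 (2.19, adjusted p = 0.0532 by edgeR).

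At the central position, chr14:22988395-22988596 was higher in POS, with 3.37 and 3.62 CPM against 0.472 and 0.871 CPM (2.41 ± 0.55, adjusted p = 4.26e-05 by edgeR). The other site there, chr14:22989203-22989404, had group means of 3.96 ± 0.48 CPM (SD, n = 2) in POS and 3.66 ± 0.50 CPM (SD, n = 2) in NEG. In the left pair, chr14:22901680-22901881 was higher in POS by 1.01 ± 0.31 (adjusted p = 0.00296 by edgeR), which was lost under DESeq2 and without POS replicate 2 (0.57). At the right border chr14:23067848-23068049 was higher in POS by 0.91 ± 0.29 (adjusted p = 0.00334 by edgeR), lost under DESeq2, without POS replicate 1 (0.64) and without NEG replicate 1 (0.71). DESeq2 called 4 sites higher and 3 lower.

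Of the 4 sites called lower in POS, chr14:22943827-22944028 was named after its values were seen. The 4 included chr14:23015452-23015653, inside the region that fell in chronic NEG, with 1.28 and 1.14 CPM in POS and 7.31 CPM in both NEG libraries (-2.56 ± 0.40, adjusted p = 9.18e-10 by edgeR). Another, chr14:23019016-23019217, lay across the left end of the region whose acetylation was lower in POS (-2.21 ± 0.54, adjusted p = 1.35e-04 by edgeR). The remaining sites, chr14:23025217-23025418 (-1.76 ± 0.34) and chr14:22943827-22944028 (3.72 and 3.24 CPM in POS, 8.02 and 5.92 CPM in NEG), lay outside every listed H3K27ac region. Summed over the 21 sites, JUNB was 201 and 190 CPM in POS and 131 and 143 CPM in NEG, and the JUNB-rich position carried the largest share of each sum.

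Of the 21 JUNB sites, 12 lay in an H3K27ac region of some table. Among the 11 chronic POS regions, 8 held a JUNB site of the DMSO libraries. The 3 without a site were the regions listed in no other table. The share of all chronic POS regions that hold a JUNB site was not computed, so no excess or lack is read from these counts. The nearest JUNB site was 22011 bp from the centre of chr14:22965984-22966985, 2026 bp from that of chr14:22990829-22991830 and 7974 bp from that of chr14:22888418-22889419. JUNB after trametinib was not analysed here, so these distances describe DMSO-treated cells only. At the far right, 4 JUNB sites lay beyond the last H3K27ac region of the window, which ended at 23042502.

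**Figure D2:**
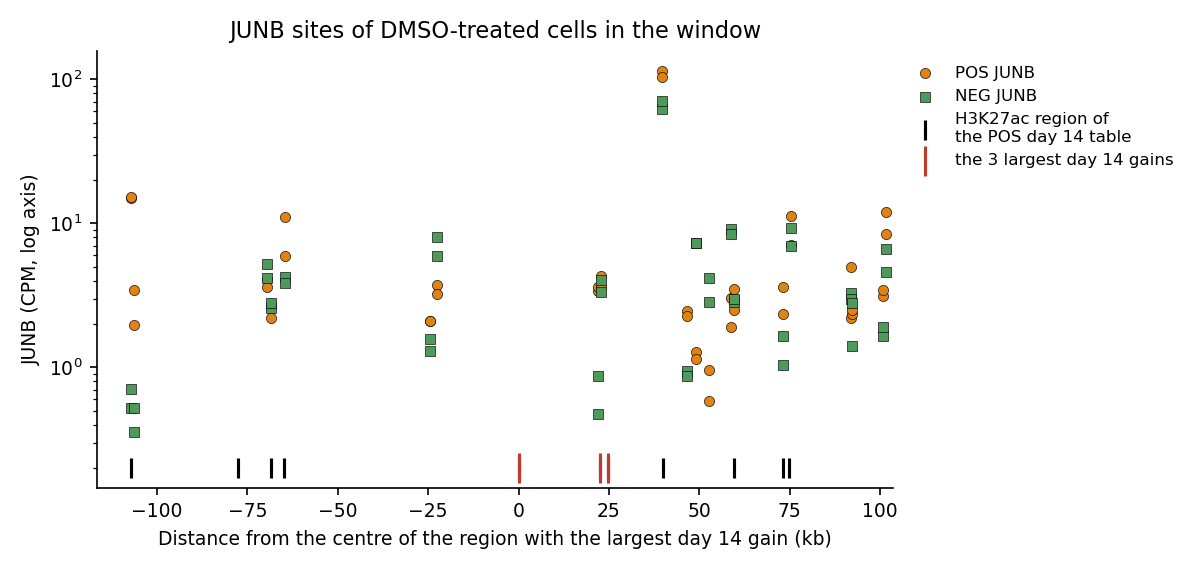
JUNB level (CPM, log axis) of each DMSO library at the 21 sites of the window, POS as orange circles and NEG as green squares, against distance from the centre of the region with the largest day 14 gain. Bars at the bottom mark the 11 chronic POS regions, in red the 3 with the largest gain, and the site near 39.8 kb stands above all others at 61.9 to 115 CPM.

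After 24 hours of trametinib in POS, the left of the window lost acetylation and parts of the right gained it. Of 8 members, 3 were called higher and 3 lower, against 26.7% and 26.0% of all regions in this table. Beside the window most regions rose. In the 220 kb to the left 5 of 8 were called higher and 0 lower, and to the right 6 of 9 higher and 2 lower. The nearest on the left, chr14:22838452-22839453, rose by 0.98 ± 0.14, and the nearest on the right, chr14:23082492-23083493, by 1.26 ± 0.17. Both rose more than any member. The edge position fell, with 11.0, 11.8 and 9.82 CPM in DMSO and 4.43, 5.64 and 4.90 CPM in trametinib at chr14:22859084-22860085 (log2 fold change -1.13 ± 0.20, adjusted p = 9.59e-07, edgeR's quasi-likelihood test). Every treated library lay below every DMSO library.

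The left pair fell as well. chr14:22900980-22901981 had 9.40, 12.2 and 7.79 CPM in DMSO and 4.83, 5.81 and 4.01 CPM in trametinib (-1.01 ± 0.21, adjusted p = 3.66e-05 by edgeR). chr14:22896555-22897556 had 11.6 ± 0.89 CPM in DMSO and 7.74 ± 0.53 CPM in trametinib (SD, n = 3 in each group; -0.60 ± 0.17, adjusted p = 0.00193 by edgeR). At the first of these places the chronic POS libraries at day 14 were above those at day 0, as given above, at another dose and time.

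The central position rose, from 17.7, 9.55 and 10.8 CPM to 24.0, 22.4 and 24.8 CPM at chr14:22988158-22989159 (0.86 ± 0.15, adjusted p = 4.60e-07 by edgeR). The right-end position rose from 12.4, 10.4 and 11.8 CPM to 21.1, 18.6 and 18.8 CPM at chr14:23040921-23041922 (0.74 ± 0.14, adjusted p = 5.30e-06 by edgeR). Next to it, chr14:23039220-23040221 had 6.45 ± 1.5 CPM in DMSO and 11.1 ± 0.98 CPM in trametinib (SD, n = 3 in each group; 0.82 ± 0.19, adjusted p = 1.26e-04 by edgeR). The JUNB-rich position had 15.3 ± 2.4 CPM in DMSO and 14.9 ± 1.0 CPM in trametinib (SD, n = 3 each), and was not called. The counts of 3 higher and 3 lower held under every alternative that was run, including DESeq2 and each library left out. Of these 6, 5 were past the threshold in the authors' deposited table, where chr14:22896555-22897556 had an adjusted p of 0.0641. The 3 regions listed only for chronic POS were not in this table, so their level at 24 hours was not analysed here.

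In NEG after 24 hours of trametinib, 2 of 5 members were called higher and 0 lower, against 17.2% and 19.3% of all regions in that table. These counts are not comparable with those of POS, which had more libraries and other listed regions. The right-end position rose here too, from 14.9 and 11.0 CPM to 22.2 and 21.8 CPM at chr14:23040921-23041922 (0.77 ± 0.17, adjusted p = 3.34e-05, edgeR's quasi-likelihood test). Of the 5 members 0 were past the threshold in the authors' deposited table, where this region had an adjusted p of 0.136. The other call, chr14:22896515-22897516 of the left pair, had 4.57 and 5.38 CPM in DMSO and 6.67 and 9.88 CPM in trametinib (0.73 ± 0.29, adjusted p = 0.0313 by edgeR). It was lost under DESeq2 (adjusted p = 0.266) and without trametinib replicate 2 (0.43), DMSO replicate 1 (0.62) or DMSO replicate 2 (0.85). The other members lay between -0.38 and 0.19 on the log2 scale, with 0 of these 3 called. Beside the window all listed regions were called higher in NEG, 1 of 1 to the left (1.30) and 4 of 4 to the right (1.43 to 1.94). Each of them rose more than any member.

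The acute responses of NEG and POS were compared by an interaction term at 4 places listed in both tables. At 1 of the 4 the responses differed, against 14.1% of all matched regions called in the same direction and 11.5% in the other. At chr14:22896555-22897556 the NEG response minus the POS response was 1.27 ± 0.35 (adjusted p = 0.00369, edgeR's quasi-likelihood test). In that fit the POS response was -0.48 and the NEG response 0.79. Without NEG trametinib replicate 2 the difference was 0.94 ± 0.42 (adjusted p = 0.108 by edgeR). At the JUNB-rich position the difference was -0.38, at chr14:23025595-23026596 0.35, and at the right end -0.04, none past the threshold.

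POSR, taken as POSR1 and POSR2 together, differed from DMSO-treated POS at 2 of 8 members, with 1 higher and 1 lower, against 17.5% and 18.5% of all regions. At chr14:22900980-22901981 of the left pair POS had 9.03, 11.8 and 7.57 CPM, POSR1 17.8 and 15.2 CPM, and POSR2 12.6 and 17.2 CPM (0.74 ± 0.21, adjusted p = 0.0217, edgeR's quasi-likelihood test). All POSR libraries lay above all POS libraries. The call was lost without POS replicate 1 (0.71) or POS replicate 3 (0.60). At the JUNB-rich position, chr14:23005773-23006774 had 17.1, 14.7 and 12.6 CPM in POS, 9.55 and 10.0 CPM in POSR1, and 7.18 and 9.72 CPM in POSR2 (-0.70 ± 0.19, adjusted p = 0.0185 by edgeR). That call was lost without POS replicate 1 (-0.58) or POS replicate 2 (-0.71). This fit counted the libraries of the 2 sets as replicates of 1 group, so its p-values treat libraries of the same set as independent. The edge and central positions were not called in it (-0.93 ± 0.62 and -0.70 ± 0.49), and there the 2 sets differed, as given below. POSR libraries share their POS controls with the POS and NEG comparison and with the acute POS comparison, so these results do not stand on separate controls.

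POSR1 and POSR2 were not alike in the window. POSR2 was lower than POSR1 at 3 of 8 members and higher at 0 of 8, against 19.3% lower and 21.2% higher over all regions. At the edge position, chr14:22859084-22860085 had 9.69 and 9.78 CPM in POSR1 and 1.31 and 1.32 CPM in POSR2, with POS at 10.6, 11.4 and 9.54 CPM (POSR2 over POSR1 -2.87 ± 0.30, adjusted p = 1.63e-19, edgeR's quasi-likelihood test). The POSR1 libraries lay within the range of the POS libraries there, and the POSR2 libraries far below it.

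The central position had the same order. chr14:22988562-22989563 had 15.6 and 13.6 CPM in POSR1, 3.35 and 3.94 CPM in POSR2, and 19.0, 12.8 and 12.3 CPM in POS (-1.996 ± 0.21, adjusted p = 5.75e-19 by edgeR). The third, chr14:23025638-23026639, had 8.43 and 9.19 CPM in POSR1 and 4.31 and 4.20 CPM in POSR2 (-1.05 ± 0.25, adjusted p = 1.31e-04 by edgeR). These 3 calls held under every alternative that was run.

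Set against POS one at a time, in a fit added after the data were seen, POSR2 had a log2 fold change of -2.98 ± 0.29 at the edge position chr14:22859084-22860085 and -2.04 ± 0.20 at chr14:22988562-22989563 (adjusted p = 8.37e-24 and 1.21e-22 by edgeR), while POSR1 had -0.10 ± 0.19 and -0.05 ± 0.15. In that fit POSR1 had 2 of 8 members higher and 1 lower, against 26.5% and 29.4% of all regions, and POSR2 had 1 higher and 4 lower, against 28.2% and 29.2%. To the left of the window 7 of 9 regions were lower in POSR2 than in POSR1 and 0 higher, and to the right 1 of 11 was lower and 3 higher.

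**Figure D3:**
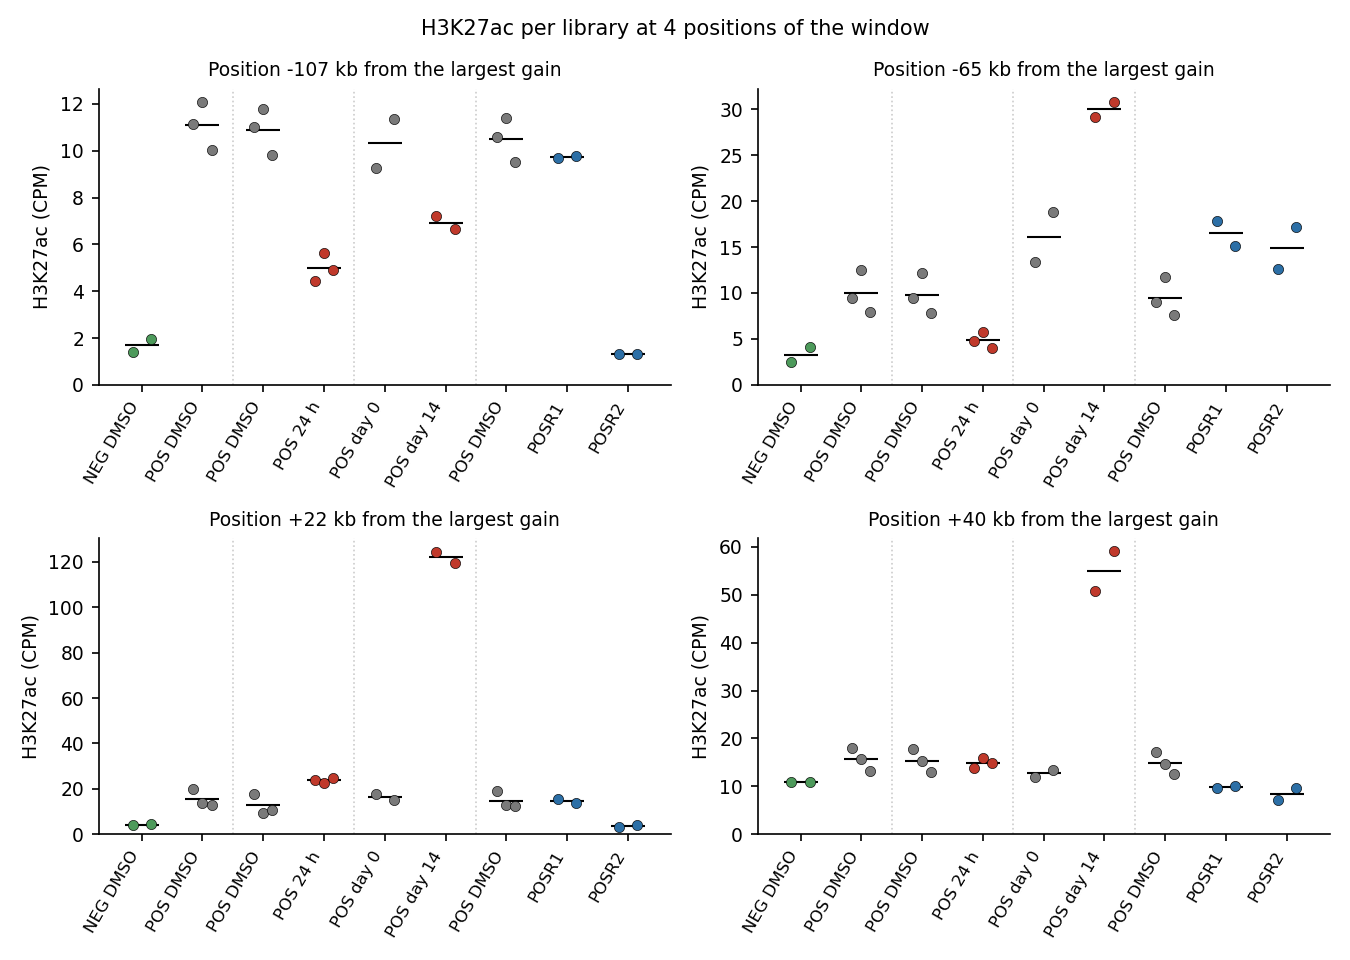
H3K27ac level (CPM) of each library, with group means as lines, at the edge position (107 kb left of the largest gain), the right-hand member of the left pair (65.0 kb left), the central position (22.4 kb right) and the JUNB-rich position (39.8 kb right), with dotted lines separating tables that were scaled separately. The central position reaches 120 to 124 CPM at day 14 in POS, against 3.35 to 3.94 CPM in POSR2, and the edge position is lowest in DMSO-treated NEG and in POSR2.

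Followed across tables, the positions did not move as one block. The edge position was at 9.54 to 12.1 CPM in every acute DMSO library of POS and every POSR1 library, at 9.28 and 11.4 CPM in POS at day 0, below 2 CPM in DMSO-treated NEG and in POSR2, and at 4.43 to 5.64 CPM after 24 hours of drug in POS. The central position was below 5 CPM in DMSO-treated NEG and in POSR2, at 9.55 to 20.0 CPM in acute DMSO libraries of POS, and highest in POS at day 14. Neither place was listed for acute or chronic trametinib in NEG. The JUNB-rich position, with the highest JUNB level of the window, kept group means of 8.45 to 18.1 CPM in every group other than POS at day 14, where it was 55.0 ± 6.0 CPM (SD, n = 2). Tables were scaled separately, so these levels are set side by side and were not tested across tables.

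**Figure D4:**
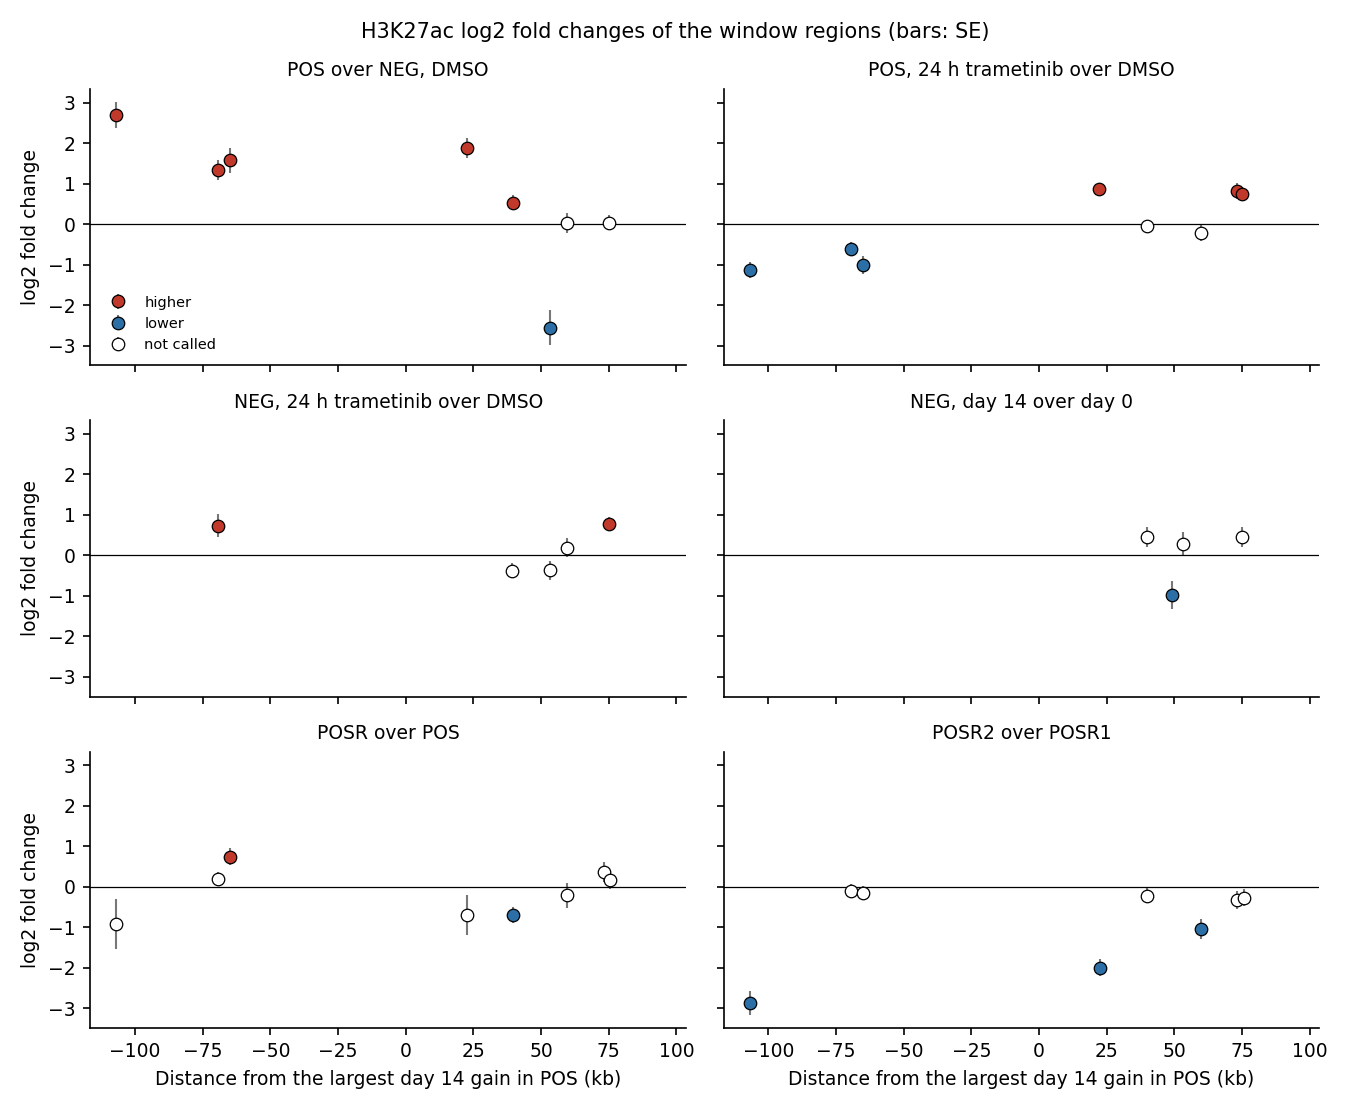
Log2 fold changes of the window's H3K27ac regions (points, with SE bars) in the 6 tested comparisons, against distance from the largest day 14 gain. Red points were called higher, blue points lower and white points were not called; in acute POS the 3 blue points lie on the left and the 3 red points on the right.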

How the data were processed

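The authors deposited 7 tables of raw counts per region and library, 6 for H3K27ac and 1 for JUNB, with regions 1001 and 201 bases wide, per the file headers. The authors also deposited tables of log2 fold changes, standard errors and adjusted p-values. Tools named in the submitters' processing notes are STAR 2.5.2b, cutadapt 1.12, MACS2, featureCounts and DESeq2, with the build hg19. How each was set is not given in the sources used here. Reads carried no described molecular identifiers, so counts are reads, not molecules. The standard errors cover counting error and the spread between these libraries only. Samples were grouped by title. The 10 inputs have no column and were not used. Columns of the acute trametinib arm bear the drug code GSK, and were assigned to that arm by their table's name and the sample titles. Headers do not say whether starts count from 0 or 1.

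The quasi-likelihood test of edgeR 4.0.16 (R 4.3.3, limma 3.58.1) was applied to the counts, with edgeR's filter at a minimum count of 10. TMM factors were between 0.888 and 1.12 in H3K27ac libraries and between 0.961 and 1.07 in JUNB libraries. The fits kept edgeR's default prior count, and a prior count of 2 was used only in the check on replicate pairing. Adjustment was by Benjamini-Hochberg over each table, threshold 0.05. Each fit held only the groups compared, except that POS stayed in the fit of POSR2 against POSR1. For the interaction, regions were matched by a reciprocal overlap of 50%. A JUNB site was placed in a region where at least 50% of it lay inside. The analysis was tested on simulated data with 200 changed regions. Far more regions were called in each real comparison, so the Benjamini-Hochberg threshold was stricter in the simulation. Its recovery rates therefore do not give the power of the tests reported here. Of simulated 2-fold changes, 17.7% were recovered for JUNB, 41.0% for POSR against POS and 64.0% to 77.8% in the other comparisons. Of 4-fold changes, 86.5% to 99.0% were recovered. A feature that was not called can still have changed 2-fold. Between replicates, chi-square divided by its degrees of freedom ran from 1.10 (NEG day 14) to 4.80 (POS DMSO replicates 1 and 2). It was 1.15 in POS at day 14. Low values can come from counting error alone, so they do not show whether replicates were separate cultures. Every library was counted as its own. Alternatives were DESeq2 1.42.0, total counts, no filter, each library left out, a replicate block, members wholly inside the window and other matching. Plots were drawn with matplotlib 3.10.9, and tables made with pandas 2.3.3 and numpy 2.4.6 under python 3.11.15.

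Members, lists and comparisons were chosen with earlier results of these data known. Named regions are the 8 chronic POS members with the largest absolute log2 fold change at a mean of at least 5 CPM, regions overlapping them in other tables, the 5 members with the smallest p in each comparison, and the 5 highest and 5 most changed JUNB sites. Others were named after their values were seen. No sequence is printed, because no sequence of the build hg19 was used.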

Additional observations from a re-analysis of the deposited data

Results flagged for a closer look

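At 2 of 8 members, 1 of the 4 POSR libraries stood apart, a different library each time. At chr14:23039206-23040207 POSR1 replicate 2 had 10.4 CPM, against 6.96 to 7.30 CPM in the other POSR libraries. At chr14:23005773-23006774 POSR2 replicate 1 had 7.18 CPM, against 9.55 to 10.0 CPM. These 4 libraries come from 2 labelled groups, and chance flags about 1 in 20 groups.

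The acute response at chr14:22896555-22897556 differed between NEG and POS by 1.27 on the log2 scale, and that call was lost without 1 NEG trametinib library (0.94).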

How the results depend on the processing

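Of 536 alternative values of 55 named log2 fold changes, 490 kept their direction and side of the threshold, 25 lost a call, 4 gained one, 5 moved by more than the spread between replicates without a test, and 12 changed sign. The cause was not tested. All sign changes were at regions that were not called. They were chr14:23040921-23041922 in POS against NEG (total counts -0.13, 1 library left out -0.17 to 0.28) and in the acute interaction (total counts 0.0058, 0.0324 with full-table TMM factors, 1 library left out -0.26 to 0.21). With 1 library left out the others were chr14:23005773-23006774 in acute POS (-0.18 to 0.0757), chr14:23025633-23026634 in acute NEG (-0.0375 to 0.38), chr14:23019228-23020229 in chronic NEG (-0.18 to 0.65), chr14:22900980-22901981 in POSR2 against POSR1 (-0.41 to 0.0667) and the JUNB site chr14:23041589-23041790 (-0.15 to 0.52).

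Under DESeq2 the count of members called higher was 1 in acute NEG and 4 for JUNB, and that called lower in chronic NEG was 0. With 1 library left out, members called higher ranged from 1 to 2 in acute NEG, 0 to 1 in chronic NEG, 0 to 1 in POSR, 4 to 6 for JUNB and 0 to 1 in the interaction, and those called lower from 0 to 1 in chronic NEG and 0 to 1 in POSR. POSR1 alone had 2 members higher and POSR2 alone 4 lower. Replicate numbers did not pair the libraries: same-numbered libraries correlated in their deviations from the group means by -0.02 to 0.38 in acute POS and by -0.20 to 0.09 elsewhere. With the replicate number as a block, POSR against POS had 0 members higher and 0 lower, and all other counts of calls stayed the same.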
